A study of Mus musculus with 10 samples.

Results

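Genes for moving new secretory proteins into the endoplasmic reticulum (ER) and out of it again were examined in the neonatal pancreas of KSR23 and wild type (WT) mice. The set holds 56 of the 24062 genes in the deposited count tables, taken by symbol and sorted into 8 roles, and all 56 had enough reads to be tested. The mice were C57BL/6 at postnatal day 5 (P5), with 5 WT and 5 KSR23 mice and 1 library per mouse. KSR23 mice were obtained by crossing R23 mice, which carry a Cre-dependent IL-23 cassette, to mice in which the keratin 14 promoter drives Cre recombinase, which directs the cytokine to keratinocytes. The study describes the WT mice as littermates, but the labels give neither litter nor sex, so litter and mouse cannot be told apart. Whole pancreas was homogenized, and p-values measure the spread between these mice.

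In outline, the signal recognition particle stops a ribosome whose new chain starts with a signal peptide and hands it to a receptor on the ER. The chain then enters through the Sec61 channel, loses its signal peptide to signal peptidase and gains sugars from the oligosaccharyltransferase. Folded cargo is gathered by cargo receptors into COPII vesicles for the Golgi, and KDEL receptors bring escaped ER residents back. Pancreatic acinar cells, which fill the gland with digestive enzymes, are a classic cell type for this route.

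Gene counts summed to 26830235 to 33189132 per WT library and to 16715976 to 57784136 per KSR23 library. A level of 3 counts corresponded to 0.0536 to 0.168 CPM (counts scaled to library size, with sizes adjusted by the TMM method), which covers counting error alone. The lowest count of any member in any library was 106, for Srp54a and Sec61g, both in KSR23 replicate 3. KSR23 replicate 3, the shallowest library, stood apart on the second principal component of all tested genes (34.2, against -12.7 to 5.46 in the other 9 libraries). Defining acinar markers were abundant in every library, but their 12-gene sum ranged from 303000 to 337000 CPM in WT mice and from 164000 to 205000 CPM in KSR23 mice. The sum of 10 duct markers ranged from 1750 to 1890 CPM in WT and from 2820 to 3110 CPM in KSR23 mice, and that of 8 islet markers from 8220 to 11500 and from 5190 to 6610 CPM. Of these genes, 11 of 12 acinar markers were called lower, 9 of 10 duct markers higher, and 6 islet markers lower with 2 higher. The acinar markers hold no trypsinogen. In a wider list of digestive enzymes, 18 of 24 tested were lower and 4 trypsinogens (Prss2, Prss3, Try4 and Try5) higher. That list summed to 552000 to 610000 CPM in WT and to 381000 to 475000 CPM in KSR23 mice. Myeloid markers, 7 of 8 tested called higher, summed to 218 to 289 CPM in WT and 269 to 637 CPM in KSR23 mice, and Reg family transcripts summed to 34200 to 42800 and 97900 to 119000 CPM. The WT mice were not alike for Reg3b, with 19731 and 21233 counts in replicates 1 and 2 and 127 to 415 in replicates 3 to 5. Reg2, Reg3a and Reg3g were split in the same way. In bulk RNA, fewer cells of a type and less RNA per cell cannot be told apart. The part of these shifts between groups in the members' values was not tested.

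The members moved in both directions and by small amounts. Over the 8 roles, 8 members were higher and 10 lower in KSR23 mice, and 38 were not called (edgeR's quasi-likelihood F test, Benjamini-Hochberg adjusted p under 0.05 over the 13882 genes tested). That is 32.1% of the members called, beside 31.0% of all genes tested (16.2% higher and 14.8% lower). By role the share called ran from 16.7% (oligosaccharyltransferase) to 75.0% (other cargo receptors), on 3 to 12 genes each. The split moved with the scaling for the members and for all genes alike. With library totals alone, 15 members were higher and 3 lower, beside 3075 and 1161 of all 13882 genes, and with library sizes taken without Reg family and enzyme genes the counts were 6 and 12, beside 1933 and 2467. Only 3 members, or 5.36%, were called with a log2 fold change (log2 FC, KSR23 over WT) of at least 0.5 in size, beside 14.7% of all genes. The CPM of the groups did not overlap for 8 members, or 14.3%, beside 19.4% of all genes. The median log2 FC of the members was -0.02 and the median size 0.16, against -0.01 and 0.22 over all genes. The members ran from -0.66 (Tmed6) to 0.55 (Sec61a1).

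**Figure D1:**
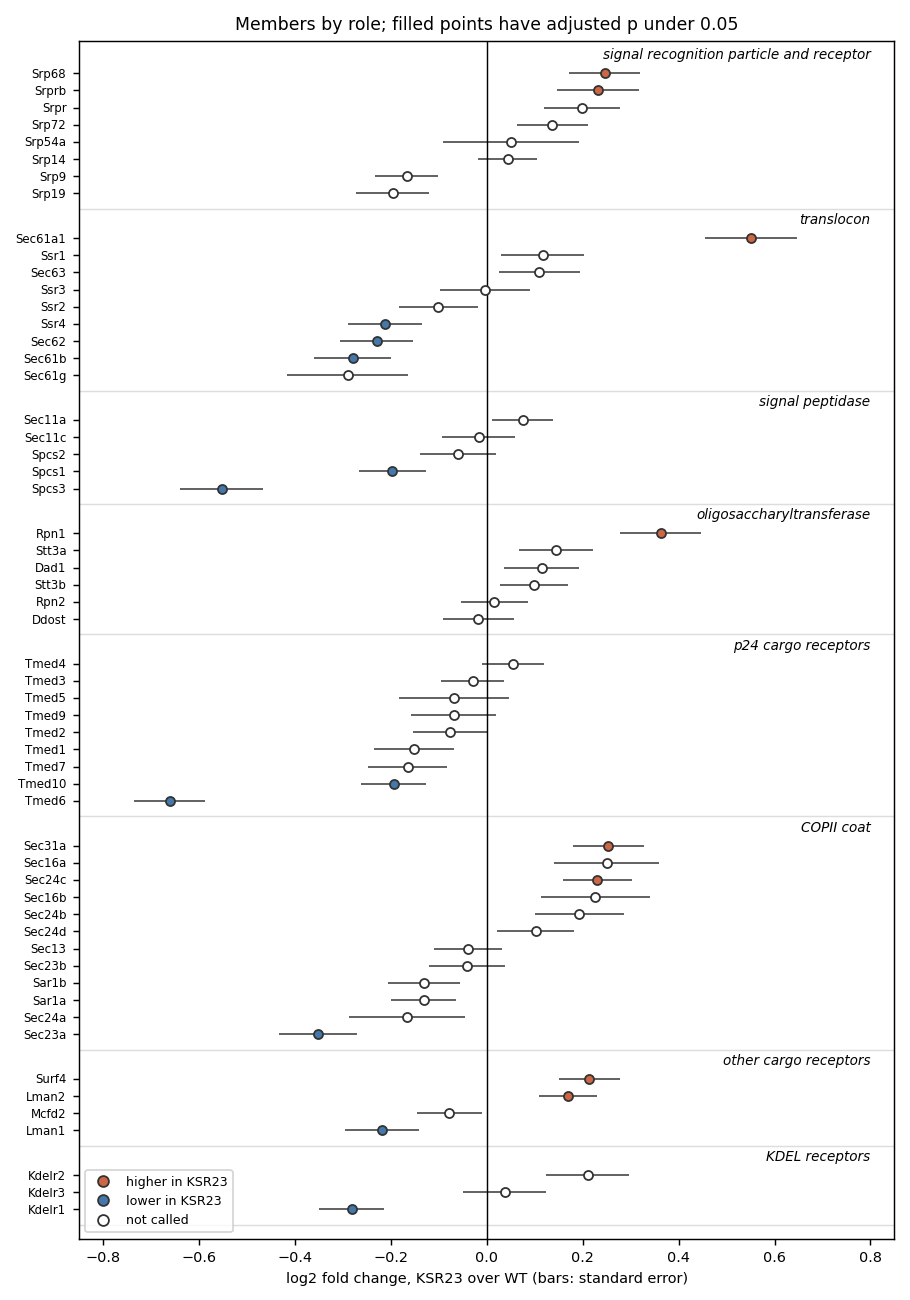
Log2 fold change of each of the 56 members, KSR23 over WT, with its standard error, grouped by role and sorted within the role. Filled points passed an adjusted p of 0.05 (8 higher, 10 lower), and only Tmed6, Spcs3 and Sec61a1 lie beyond 0.5 in size.

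Summed over the 56 genes, the members made up 8563 ± 278 CPM in WT mice and 8508 ± 755 CPM in the KSR23 group (SD, n = 5 each), a log2 ratio of -0.01. Among the roles, the p24 cargo receptors had the lowest ratio of summed CPM (1419 ± 42.0 in WT and 1171 ± 70.0 in KSR23 mice, log2 ratio -0.28), followed by signal peptidase (997 ± 55.2 and 853 ± 83.5, log2 ratio -0.22). At the other end stood the oligosaccharyltransferase (1614 ± 52.2 and 1753 ± 184, log2 ratio 0.12) and the signal recognition particle with its receptor (621 ± 18.1 and 668 ± 62.3, log2 ratio 0.10). The translocon (0.07), the other cargo receptors (0.05), the COPII coat (0.04) and the KDEL receptors (0.01) lay between. Sums were not tested, and over 4 scalings of the libraries the ratio stayed below 0 for p24 and signal peptidase (-0.32 to -0.18 and -0.26 to -0.13) and crossed 0 for the KDEL receptors (-0.03 to 0.10) and for all members (-0.05 to 0.08). Single genes carried several of these ratios. Without Tmed6 the log2 ratio of the p24 sum was -0.08, and the groups overlapped (847 to 898 CPM in WT and 770 to 891 CPM in KSR23 mice). Signal peptidase without Spcs3 was at -0.07, and the translocon without Sec61a1 turned to -0.07. Without Rpn1 the oligosaccharyltransferase was at 0.06, and without Srp68 the signal recognition particle with its receptor was at 0.08.

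KSR23 mice differed among themselves across most members at once. Replicate 5 had the highest CPM of the KSR23 group for 35 of the 56 members and was among the highest 2 for 50, while replicate 3 was lowest for 30. These ranks are of TMM-scaled CPM, and replicates 5 and 3 were the deepest and shallowest libraries (57784136 and 16715976 gene counts). Scaled by library totals alone, the summed members were highest in KSR23 replicate 1 (9383 CPM, against 9346 in replicate 5). They were lowest in KSR23 replicate 4 (8201 CPM, against 8247 in replicate 3). In the WT group, replicate 5 was lowest for 25 members and replicate 2 highest for 19. For 6 of the 8 higher members the highest 2 KSR23 mice were replicates 1 and 5. Without KSR23 replicate 5, 4 members were called higher and 12 lower, and without KSR23 replicate 3, 11 were called higher and 5 lower. Over all genes tested, the counts were 2044 and 1740 without KSR23 replicate 5, and 2204 and 1969 without KSR23 replicate 3.

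The signal recognition particle and its receptor had 2 of 8 members higher and none lower. At an unadjusted p under 0.05, 2 were lower, and 2 were called lower by DESeq2 and by edgeR with library sizes taken without Reg family and enzyme genes. Srp68, a large protein subunit of the particle (chromosome 11, 116245166 to 116274217, GRCm38), was at 85.0, 83.1, 83.7, 87.2 and 90.1 CPM in WT replicates 1 to 5 and at 110, 90.6, 89.1, 105 and 113 CPM in KSR23 replicates 1 to 5. KSR23 replicate 3 fell inside the WT range, and the other 4 KSR23 mice were above it, replicate 2 only just. Its log2 FC was 0.25 ± 0.0738 (SE), at an adjusted p of 0.0171 by the quasi-likelihood test of edgeR. Srprb, the receptor's membrane anchor, was called at 0.23 (adjusted p = 0.0477 by the same test). However, 20.7% of its exonic bases also belong to an annotated gene on the same strand, and 72.8% of its 75-base windows are unique. The docking subunit Srpr (0.20), Srp72 (0.14), Srp54a (0.05), the subunit that binds the signal peptide, and Srp14 (0.04) were not called, nor were Srp9 (-0.17) and Srp19 (-0.20). Srp54b and Srp54c, near-identical copies of Srp54a, had 0 counts in every library, and only 26.7% of the 75-base windows of Srp54a are found in no other gene, so its level (4.26 to 5.96 CPM over all mice) is uncertain.

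The Sec61 translocon was the group with both the highest rise and several falls. Sec61a1, the channel-forming subunit (chromosome 6, 88503579 to 88518905), was at 373, 384, 360, 345 and 343 CPM in WT replicates 1 to 5 and at 637, 492, 450, 446 and 620 CPM in KSR23 replicates 1 to 5. Every KSR23 mouse was above every WT mouse, with replicates 1 and 5 well above the other three. The mean went from 361 ± 17.8 to 529 ± 92.8 CPM (SD, n = 5 each), with log2 FC 0.55 ± 0.0959 (SE) and an adjusted p of 0.000283 by the quasi-likelihood test of edgeR.

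By contrast, the small partner subunit Sec61b (chromosome 4, 47474658 to 47483242) was at 180, 131, 142, 155 and 144 CPM in WT replicates 1 to 5 and at 119, 130, 126, 112 and 133 CPM in KSR23 replicates 1 to 5. The ranges met only between WT replicate 2 and KSR23 replicate 5, and the log2 FC was -0.28 ± 0.0801 (SE), at an adjusted p of 0.0132 by the same edgeR test. Sec61g, the other small subunit, had a log2 FC of -0.29 but was not called (adjusted p = 0.0896). Sec62, which helps post-translational entry, was lower at -0.23, while its partner Sec63 was at 0.11 and not called. Of the translocon-associated proteins, which assist certain signal peptides, Ssr4 was lower at -0.21, and Ssr1 (0.12), Ssr3 (-0.0037) and Ssr2 (-0.10) were not called. Per kilobase of transcript, Sec61b stood at 267 and 220 CPM in WT and KSR23 mice and Sec61a1 at 114 and 167 CPM. Of the 75-base windows, 76.1% are unique for Sec61b, 80.6% for Sec61g and 100.0% for Sec61a1, so the small subunits' values are less certain.

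Signal peptidase had 2 of 5 members lower. Spcs3, an accessory subunit that is needed for cleavage (chromosome 8, 54520433 to 54529998), was at 308, 380, 357, 378 and 340 CPM in WT replicates 1 to 5 and at 257, 250, 215, 200 and 279 CPM in KSR23 replicates 1 to 5. The groups did not overlap. Its mean went from 352 ± 29.9 to 240 ± 32.03 CPM, with log2 FC -0.55 ± 0.0871 (SE) and an adjusted p of 0.000103 by the quasi-likelihood test of edgeR. Spcs1, a small accessory subunit, was lower at -0.20 (adjusted p = 0.0408). The catalytic subunits Sec11a (0.07) and Sec11c (-0.02) and the accessory Spcs2 (-0.06) were not called. Per kilobase, Sec11c was the more abundant catalytic subunit, at 187 CPM against 41.5 CPM for Sec11a in WT mice.

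In the oligosaccharyltransferase, Rpn1, a ribophorin subunit that presents substrates to the enzyme (chromosome 6, 88084482 to 88105304), was the only called member. It was at 318, 329, 287, 310 and 287 CPM in WT replicates 1 to 5 and at 426, 386, 338, 347 and 470 CPM in KSR23 replicates 1 to 5, with no overlap. The mean rose from 306 ± 18.8 to 393 ± 55.2 CPM, with log2 FC 0.36 ± 0.0844 (SE) and an adjusted p of 0.00339 by the quasi-likelihood test of edgeR. The catalytic subunits Stt3a (0.14) and Stt3b (0.10), with Dad1 (0.11), Rpn2 (0.02) and Ddost (-0.02), were not called.

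Of the p24 family, transmembrane receptors that cycle between the ER and the Golgi, 2 of 9 were lower and none was higher, also at an unadjusted p under 0.05 and with DESeq2. Tmed6 (chromosome 8, 107061476 to 107065644) was at 543, 508, 539, 586 and 513 CPM in WT replicates 1 to 5 and at 317, 374, 298, 346 and 366 CPM in KSR23 replicates 1 to 5. The lowest WT mouse was well above the highest KSR23 mouse. The mean fell from 538 ± 31.1 to 340 ± 32.1 CPM, with log2 FC -0.66 ± 0.0737 (SE) and an adjusted p of 1.92e-06 by the quasi-likelihood test of edgeR, and the size of this change was larger than that of 88.9% of all genes tested.

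Tmed6 was also the most abundant p24 transcript per kilobase, at 618 ± 35.7 CPM in WT and 390 ± 36.9 CPM in KSR23 mice, ahead of Tmed3 (173 and 170 CPM) and Tmed10 (138 and 121 CPM). It remained first in KSR23 mice. Tmed10, a partner in most p24 complexes, was lower at -0.19 (adjusted p = 0.035) without overlap, although 72.3% of its windows are unique. Tmed7 (-0.17), Tmed1 (-0.15), Tmed2 (-0.08), Tmed5 (-0.07), Tmed9 (-0.07), Tmed3 (-0.03) and Tmed4 (0.06) were not called. The values of Tmed7 are uncertain, since 43.9% of its windows are unique and it overlaps Ticam2.

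**Figure D2:**
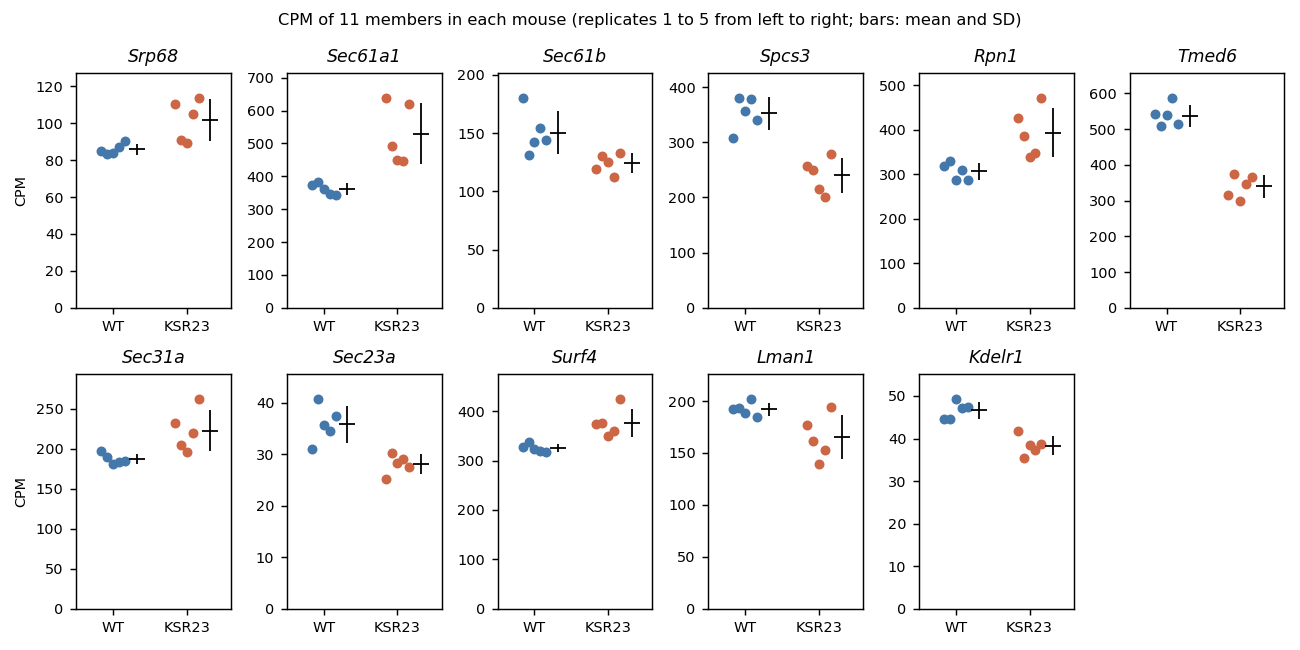
CPM of 11 members in each mouse, with points for replicates 1 to 5 of a group from left to right and black marks for the mean and SD. The groups do not overlap for Sec61a1, Spcs3, Rpn1, Tmed6, Sec23a, Surf4 and Kdelr1, and do for Srp68, Sec61b, Sec31a and Lman1.

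Use of strand in counting is not stated, and 16.3% of the exonic bases of Spcs1, 11.7% of those of Sec62, 8.9% of those of Sec23a and 8.2% of those of Sec61a1 lie opposite annotated transcripts (Glt8d1, 4933429H19Rik, Gm17529 and Gm44170), whose reads cannot be told apart from theirs.

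The COPII coat had 2 of 12 members higher, 1 lower and 9 not called. Sec31a, which with Sec13 builds the outer cage (chromosome 5, 100361649 to 100416234), was at 197, 189, 180, 183 and 185 CPM in WT replicates 1 to 5 and at 232, 204, 196, 219 and 262 CPM in KSR23 replicates 1 to 5. KSR23 replicate 3 lay just inside the WT range and the other 4 above it. The log2 FC was 0.25 ± 0.0739 (SE), at an adjusted p of 0.0147 by the quasi-likelihood test of edgeR, while Sec13 was at -0.04 and not called.

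In the inner layer, Sec23a (chromosome 12, 58958383 to 59012017), which activates the Sar1 GTPase and holds Sec24, was at 30.9, 40.7, 35.7, 34.5 and 37.5 CPM in WT replicates 1 to 5 and at 25.3, 30.3, 28.3, 29.1 and 27.6 CPM in KSR23 replicates 1 to 5. The highest KSR23 mouse was just below the lowest WT mouse. Its log2 FC was -0.35 ± 0.0814 (SE), at an adjusted p of 0.00318 by the same edgeR test, and that of its paralog Sec23b, which was more abundant per kilobase (44.6 against 8.73 CPM in WT mice), was -0.04 and not called. Among the Sec24 proteins, which pick the cargo, Sec24c was higher at 0.23 (adjusted p = 0.0201), and Sec24b (0.19), Sec24d (0.10) and Sec24a (-0.17) were not called. The order of these paralogs per kilobase was the same in both groups, with Sec24d at 25.2 and 27.0 CPM in WT and KSR23 mice, Sec24c at 14.5 and 17.0, Sec24b at 3.90 and 4.44 and Sec24a at 1.09 and 0.968. The GTPases Sar1a and Sar1b, which start the coat, were both at -0.13, and the scaffolds of the exit sites, Sec16a (0.25) and Sec16b (0.23), were not called either.

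**Figure D3:**
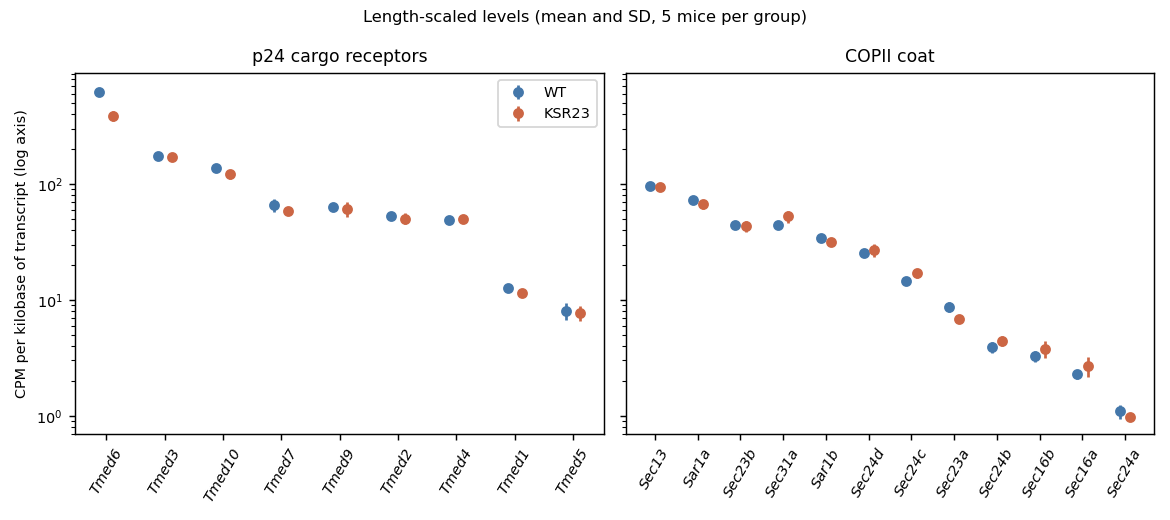
Levels of the p24 receptors and the COPII coat members in CPM per kilobase of the longest transcript, on a log axis, as the mean and SD of 5 mice per group. Tmed6 is highest in both groups and lower in KSR23 mice (618 and 390), and the Sec24 paralogs have the same order in both groups.

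Cargo receptors outside the p24 family had 2 of 4 members higher and 1 lower. Surf4, which exports many soluble proteins (chromosome 2, 26920040 to 26933928), was at 328, 338, 324, 319 and 317 CPM in WT replicates 1 to 5 and at 375, 376, 350, 360 and 424 CPM in KSR23 replicates 1 to 5. The KSR23 values lay above the WT values by a small margin, with log2 FC 0.21 ± 0.0630 (SE) and an adjusted p of 0.0155 by the quasi-likelihood test of edgeR. The lectin Lman1 (ERGIC-53), which carries glycoproteins together with Mcfd2, was at 192, 194, 189, 202 and 185 CPM in WT replicates 1 to 5 and at 177, 161, 140, 153 and 195 CPM in KSR23 replicates 1 to 5.

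KSR23 replicate 5 alone reached the WT range of Lman1, whose log2 FC was -0.22 ± 0.0778 (SE), at an adjusted p of 0.0406 by the same edgeR test. Its partner Mcfd2 was at -0.08 and not called, and the lectin Lman2 was higher at 0.17 (adjusted p = 0.0436).

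One of the 3 KDEL receptors was lower. Kdelr1 (chromosome 7, 45872772 to 45883732) was at 44.7, 44.7, 49.2, 47.1 and 47.5 CPM in WT replicates 1 to 5 and at 41.8, 35.4, 38.4, 37.4 and 38.8 CPM in KSR23 replicates 1 to 5, without overlap. Its log2 FC was -0.28 ± 0.0673 (SE), at an adjusted p of 0.00407 by the quasi-likelihood test of edgeR. Kdelr2 was at 0.21 and Kdelr3 at 0.04, and neither was called (adjusted p = 0.0732 for Kdelr2). Per kilobase, Kdelr2 went from 27.2 CPM in WT to 31.5 CPM in KSR23 mice, and Kdelr1 stood at 29.2 CPM in WT mice.

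To compare paralogs without the scaling of libraries, the log2 ratio of 2 genes inside each library was tested for 10 pairs. The ratio of Tmed6 to Tmed10 went from 1.39 ± 0.0778 to 0.923 ± 0.163 (WT and KSR23, SD over 5 mice), with p = 0.00794 in a two-sided exact permutation test, and 5 against 5 can give no smaller p. No mouse overlapped. Kdelr2 over Kdelr1 went from 0.0932 ± 0.153 to 0.577 ± 0.238 (p = 0.0159 in the same exact test), a log2 difference of 0.48, with WT replicate 1 (0.279) just above KSR23 replicate 1 (0.274).

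For Sec23b over Sec23a the difference was 0.30 (exact permutation p = 0.0159), and for Sec24a over Sec24b it was -0.35 (exact permutation p = 0.0397). After adjustment over the 10 pairs the lowest value was 0.0529, for the pairs of Tmed6, Kdelr2 and Sec23b, so no pair passed 0.05. The smallest possible p of the exact permutation test, 0.00794, is too large for a single pair to pass on its own after adjustment over 10 pairs. The pairs Sec24d to Sec24c, Kdelr3 to Kdelr1, Sec11c to Sec11a, Stt3b to Stt3a, Sar1b to Sar1a and Sec16b to Sec16a had adjusted values from 0.0952 to 0.913.

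The 18 called members were followed through 19 alternatives of test, scaling, filter, block and mice. All 18 kept their sign in every one. Of them, 5 were called in all 19, namely Sec61a1, Spcs3, Rpn1, Tmed6 and Sec23a. The log2 FC of Sec61a1 ranged from 0.42 to 0.64 over the alternatives and that of Tmed6 from -0.70 to -0.49. Kdelr1 lost its call only with libraries scaled by their total alone (adjusted p = 0.0722), a scaling that moves the median of all genes to 0.09, and Sec31a only when a trend with GC content and length was removed (adjusted p = 0.108). Surf4 and Sec24c lost it with that trend removed and without KSR23 replicate 5, Srp68 with that trend removed and without KSR23 replicate 1, and Sec61b with that trend removed and with library totals alone. Sec62, Ssr4, Spcs1, Tmed10, Lman1, Srprb and Lman2 lost the call in 7 to 13 alternatives, and 22 of the 38 uncalled members were called in none. With the trend removed, 2 of the 8 higher members (Sec61a1 and Rpn1) and 4 of the 10 lower members (Tmed6, Spcs3, Sec23a and Kdelr1) kept the call, while 6 others were called higher and 1 lower.

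**Figure D4:**
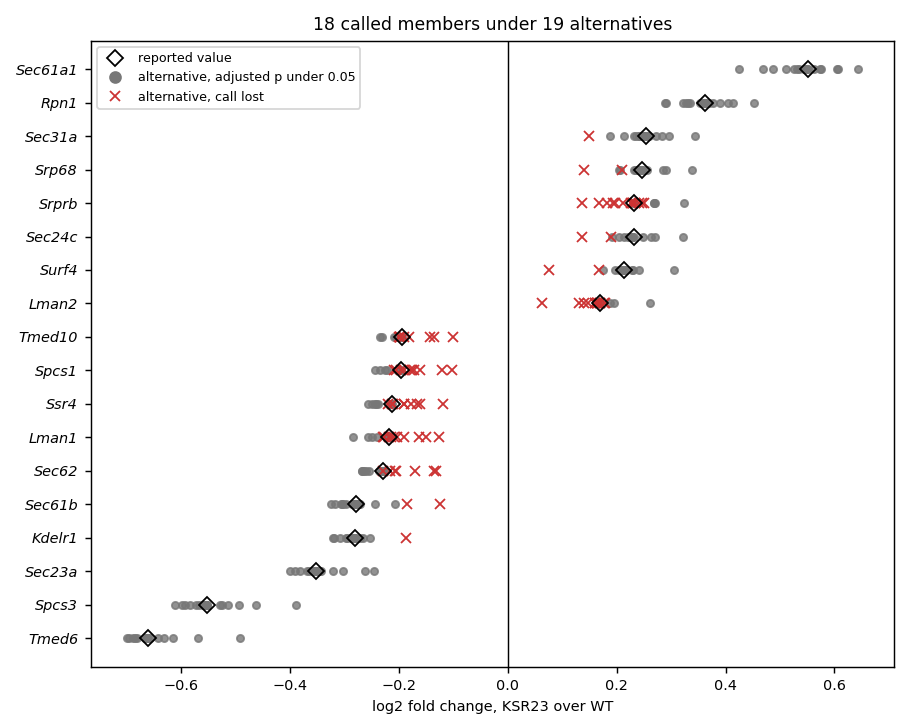
Log2 fold change (KSR23 over WT) of the 18 called members as reported (diamonds) and under 19 alternatives, with circles where the adjusted p stayed under 0.05 and crosses where the call was lost. No point crosses 0, and Sec61a1, Rpn1, Sec23a, Spcs3 and Tmed6 have no crosses.

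Over the 56 members, Spearman's rho of log2 FC with transcript length was 0.467, and over 13776 tested genes it was -0.0357, as a description over genes measured in the same libraries. With GC content the values were 0.274 over the members and 0.328 over all genes.

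Other genes of the same route were read beside the members. Their counts stand against 16.2% of all genes tested called higher and 14.8% called lower. Of 19 further translocation and glycosyl transfer genes tested, 3 were lower and none was higher (1 at an unadjusted p under 0.05, and none with DESeq2), led by Magt1, a subunit of the oligosaccharyltransferase (147 ± 13.3 to 101 ± 7.16 CPM, log2 FC -0.54, adjusted p = 2.12e-05 by edgeR). Of 23 further export genes, 2 were higher and 4 lower. Among these, Ctage5, an exit-site protein for large cargo, was at 0.23 (adjusted p = 0.0346 by edgeR) and was called in 12 of the 19 alternatives. The entry Mia2, which GENCODE M21 places in the same gene as Ctage5, was at -0.22 and not called. Tmed11, a p24 gene outside the 56, was at 50.3, 56.2, 57.0, 55.9 and 59.4 CPM in WT replicates 1 to 5 and at 5.41, 2.58, 6.82, 8.39 and 3.91 CPM in KSR23 replicates 1 to 5.

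The groups were far apart for Tmed11, with a log2 FC of -3.38 ± 0.200 (SE), at an adjusted p of 5.24e-10 by the same edgeR test, although 23.2% of its exonic bases also belong to Vmn2r8 on the same strand. In the COPI coat, which runs the return route, 3 of 14 genes were higher and 2 lower. Its paralogs Copg1 (161 ± 8.59 to 197 ± 14.4 CPM, log2 FC 0.29) and Copg2 (21.6 ± 2.06 to 14.7 ± 2.31 CPM, log2 FC -0.55) were called in opposite directions, with 8.5% and 17.8% of their exonic bases opposite Gm26636 and Mest. The list of 26 ER chaperone and quality control genes includes Derl1, Derl2, Derl3 and Herpud1 of the degradation route. Of these 26, 12 were higher and 2 lower (53.8%, beside 31.0% of all genes tested), with a median log2 FC of 0.20. The highest was Hyou1 at 0.89 and the lowest Pdia2, the pancreatic disulfide isomerase, at -0.62 (4003 ± 96.5 to 2607 ± 358 CPM).

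**Figure D5:**
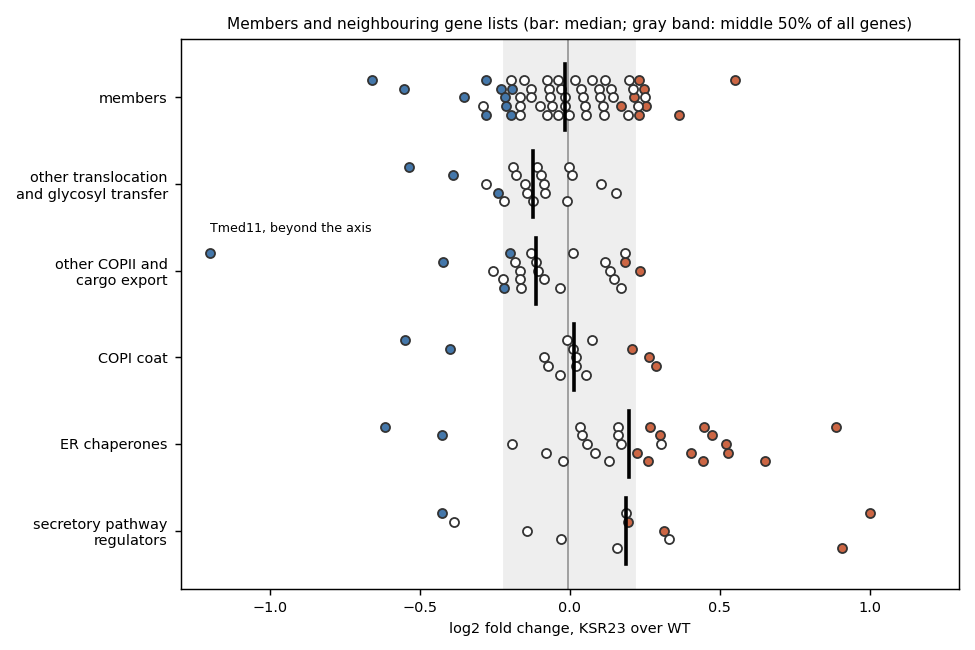
Log2 fold change (KSR23 over WT) of the members and of 5 neighbouring lists, with filled points for called genes, a black bar at each median, a gray band for the middle 50% of all genes and a gray line at their median. Tmed11 (-3.38) is drawn at the left edge, the members' median is -0.02 and that of the ER chaperones is 0.20.

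Regulators of secretory genes gave 4 of 11 higher and 1 lower (45.5%, beside 31.0% of all genes tested). Xbp1, a transcription factor of the unfolded protein response, was at 758, 770, 739, 719 and 699 CPM in WT replicates 1 to 5 and at 1457, 1313, 1106, 1567 and 1468 CPM in KSR23 replicates 1 to 5. No mouse overlapped, and the log2 FC was 0.91 ± 0.0902 (SE), at an adjusted p of 4.70e-07 by the quasi-likelihood test of edgeR. Gene counts do not tell its spliced from its unspliced form.

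Also higher were Creb3l4 (1.002), Atf6b (0.31) and Creb3 (0.19), of whose exonic bases 20.8% lie opposite other genes. Bhlha15 (Mist1), a helix-loop-helix factor of acinar cells, was lower at -0.43 (125 ± 10.9 to 93.2 ± 13.9 CPM, adjusted p = 0.00185 in the same test). Ddit3 (0.33), Creb3l1 (0.19), Atf6 (0.16), Atf4 (-0.03), Creb3l2 (-0.14) and Creb3l3 (-0.39) were not called. In the edgeR fit with the GC and length trend removed, Atf6b (0.13, adjusted p = 0.239) and Creb3 (0.13, adjusted p = 0.108) lost the call. Atf6 was called higher in that fit (0.26, adjusted p = 0.0251), and Xbp1, Creb3l4 and Bhlha15 kept their calls.

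Promoters were searched for letters known to be bound by such factors, in 250 bases before to 50 after the RefSeq start (GRCm38.p6) and on both strands. The table held a promoter for 46 of the 56 members, not for Srp19, Srp68, Sec61a1, Ssr2, Spcs3, Sec11c, Tmed2, Tmed7, Lman1 and Kdelr2. The unfolded protein response element core TGACGTGG was in 4 of the 46 (8.7%), beside 0.71% of 27025 genes in the table and 1.07% of 10442 tested genes. In 3 of those 4 it was followed by CA, an extension looked at after the hits were seen, which 14 of the 27025 genes (0.05%) had. The ER stress response element (CCAAT and CCACG with 9 bases between) and its second form (ATTGG, 1 base, CCACG) were in none of the 46, against 0.14% and 0.04% of all genes. CCACG is also part of the core read on the other strand. TGACGTCA was in none (2.03% of all genes), and CAGCTG, an E-box, in 3 (6.5%, against 18.29%).

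The stretches with the core are shown because they are the letters that these members shared, with the core in capitals and 60 bases up to the start for Sec24d (chr3:123267436-123267495, plus strand), Sec16b (chr1:157506736-157506795, plus strand) and Kdelr3 (chr15:79516348-79516407, plus strand, where the match is on the other strand and the capitals are its reverse complement). For Sec23a the core lies just after the start (chr12:59012000-59012015, minus strand). The 60 bases before the start of Tmed6 (chr8:107065645-107065704, minus strand) and Rpn1 (chr6:88084413-88084472, plus strand), called members without the core, are set beside them.
Sec24d: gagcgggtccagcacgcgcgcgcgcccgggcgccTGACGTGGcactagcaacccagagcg
Sec16b: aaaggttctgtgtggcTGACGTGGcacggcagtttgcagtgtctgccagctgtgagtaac
Sec23a: ccttTGACGTGGcaga
Kdelr3: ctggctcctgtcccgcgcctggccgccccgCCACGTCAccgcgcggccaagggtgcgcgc
Tmed6: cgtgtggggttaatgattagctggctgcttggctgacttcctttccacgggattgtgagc
Rpn1: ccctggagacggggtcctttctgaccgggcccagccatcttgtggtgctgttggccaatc
Of the 4 members with the core, Sec23a was lower (log2 FC -0.35), and Sec16b (0.23), Sec24d (0.10) and Kdelr3 (0.04) were not called. A match is a description of letters and not of binding.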

How the data were processed

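Poly(A) RNA of 5 WT and 5 KSR23 pancreata was read as single-end 75-base reads after oligo-dT priming of total RNA and PCR amplification without molecular identifiers. Per the labels, the authors used TopHat2 2.1.0 on mm10 and HTSeq 0.6.1p1, and the deposited values are raw counts per gene. The strand setting and annotation are not given in the sources used here, and the labels also name edgeR 3.18.1. Lines that name no gene were left out, of which the alignments that were not unique made 49.64 to 53.73% of all tallied in WT and 38.49 to 42.46% in KSR23 libraries. Reads of genes with near-identical copies are lost there.

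A gene entered the test if no library had fewer than 5 of its reads, which held for 13882 of 24062. Counts were scaled by TMM and compared with edgeR 4.0.16 (glmQLFit, glmQLFTest) in R 4.3.3, with Benjamini-Hochberg adjustment over all of them. The standard error is the size of the log2 FC over the square root of F. Single values were compared by a two-sided exact permutation test over 252 splits (scipy 1.17.1), and ratios inside a library had 0.5 reads added. Lengths, positions and unique 75-base windows are of GENCODE M21 (GRCm38). A level per kilobase is CPM over the longest transcript, coding where there is one.

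Members and lists were chosen with earlier results of these data known, so no list was tested. Named with every mouse's value were the called members with the largest rise and fall of each role and every called member of at least 0.5 in size. Of each other list the called genes with the largest rise and fall were named, with all tested regulators. Alternatives were edgeR's likelihood ratio test, DESeq2 1.42.0, other scalings and filters, a replicate block and leaving out each mouse. Removal of a GC and length trend was added after seeing the data. On counts simulated for this comparison (14020 genes), the test found 60.6% of 99 genes changed by a log2 FC of 0.5. It found 89.7% of 97 genes changed by 1, and 5.16% of its calls were false. Far fewer genes changed there than were called in these data (31.0%), so these rates may not carry over. The lowest chi-square per degree of freedom between libraries of a group was 11.36, so no library repeats another.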

Additional observations from a re-analysis of the deposited data

Results flagged for a closer look

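Of 150 sets of 5 values examined (members, summed roles and paralog ratios in each group), 2 held a value far from the other 4, where about 7.5 would come by chance. The log2 ratio of Sar1b to Sar1a was -2.041 in KSR23 replicate 3, against -2.275 to -2.222 in the other KSR23 mice. Summed over the 3 KDEL receptors, WT replicate 5 had 144.1 CPM, against 162.8 to 167.5 CPM in the other WT mice.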

How the results depend on the processing

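When library totals alone set the scale, the members called were 15 higher and 3 lower (3075 and 1161 of 13882 genes in all), the other export genes 6 higher and 2 lower, and 1 other translocation gene was higher. With the size of libraries taken without Reg family and enzyme genes, 6 members were higher and 12 lower (1933 and 2467 of all genes), 6 other translocation genes were lower and 0 other export genes were higher in edgeR's quasi-likelihood test (2 at an unadjusted p under 0.05), and DESeq2 gave 5 other translocation genes lower. Without a filter on low counts 1 other export gene was higher. Removing the GC and length trend, chosen after seeing the data, gave 8 members higher, 2 of them among the reported 8, and 5 lower, 4 of them among the reported 10, with 1 COPI and 1 other translocation gene higher. Of the 13776 genes in that fit, 2022 were higher and 1758 lower. Leaving out 1 mouse gave 4 to 11 members higher (4 without KSR23 replicate 5) and 5 to 12 lower (5 without WT replicate 4 or KSR23 replicate 3, and 6 without WT replicates 1 or 3 or KSR23 replicates 1 or 4). Over all genes tested, it gave 1846 to 2210 higher and 1651 to 1973 lower. It also gave 2 to 5 other translocation genes lower, 0 to 3 other export genes higher and 2 to 5 lower, and 1 to 2 regulators lower. The causes were not tested.

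The labels give both groups replicate numbers 1 to 5. With the replicate number as a block, 6 members were higher and 6 lower (1998 and 1751 of 13882 genes in all), and 1 other export gene was higher. Same-numbered mice had correlations of -0.109 to 0.0665 in their deviations from the group means, so no pairing by number was seen. The labels give no litter, so a litter shared by same-numbered mice was not tested.

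The members whose log2 FC changed sign were all uncalled. With library totals alone these were Ssr3 (0.089), Spcs2 (0.030), Sec11c (0.074), Ddost (0.072), Tmed2 (0.012), Tmed3 (0.061), Tmed5 (0.024), Tmed9 (0.029), Sec13 (0.053), Sec23b (0.051) and Mcfd2 (0.012), as well as the regulator Atf4 (0.064). Without Reg family and enzyme genes in the library size they were Rpn2 (-0.024) and Kdelr3 (-0.0010). With the GC and length trend removed they were Srp19 (0.072), Ssr3 (0.15), Sec11c (0.14), Rpn2 (-0.085), Tmed5 (0.25) and Sar1b (0.10). Leaving out 1 mouse gave log2 FC ranges across 0 for Srp54a (-0.0016 to 0.13), Ssr3 (-0.069 to 0.057), Sec11c (-0.068 to 0.034), Rpn2 (-0.050 to 0.051), Ddost (-0.078 to 0.017), Tmed3 (-0.063 to 0.0061), Tmed9 (-0.14 to 0.0059), Kdelr3 (-0.036 to 0.077) and Atf4 (-0.070 to 0.015), and for the group difference in the log2 ratios of Sar1b to Sar1a (-0.034 to 0.039) and of Sec16b to Sec16a (-0.12 to 0.048).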
